A study of Mus musculus with 60 samples.

Results

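The 10 transcription factors of the naive pluripotency network (Nanog, Tbx3, Prdm14, Klf2, Klf4, Klf5, Esrrb, Tfcp2l1, Nr0b1 and Gbx2) were followed in mouse embryonic stem cells that were moved into 2i. They were taken by gene name from the table of raw counts, where all 10 were found among 50559 genes, and all 10 were among the 15083 genes that passed the filter on low counts. Polyadenylated RNA was sequenced from 4 lines, each with 3 biological replicates at 0, 12, 24, 48 and 96 h of 2i, which gave 20 groups and 60 libraries. The lines were 1A carrying an EED knockout, 1A carrying an EZH2 knockout, and the wild-type lines V19 and 1A, which the series describes as independently derived. Both knockouts were made with Cas9 in 1A, so each is 1 edited line, and loss of the gene cannot be told apart from features of that line. Cells of every group grew on gelatin in medium with serum and LIF, the 0 h cells without inhibitors. The 2i pair was the GSK3 inhibitor CHIR99021 at 3 µM and the MEK inhibitor PD0325901 at 1 µM, renewed each day. Levels are given as CPM, read counts scaled to each library's total after TMM normalization, for single libraries or as mean ± SD (n = 3). Differences are given as log2 fold changes ± SE. A difference was called at an adjusted p under 0.05 in edgeR's quasi-likelihood test over all genes tested. All values come from bulk RNA, in which fewer cells of a type and less RNA per cell cannot be told apart.

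Naive pluripotency is the state of the embryo's inner cell mass before implantation, and in culture it is held by factors that feed on one another around Oct4 and Sox2. LIF acts through STAT3 on Klf4, Tfcp2l1 and Gbx2, inhibition of GSK3 stabilises beta-catenin and relieves the repressor Tcf7l1 from targets such as Esrrb, Klf2 and Nanog, and inhibition of MEK removes ERK signalling, which otherwise moves cells toward exit from the state. EZH2 is the main catalytic subunit of Polycomb repressive complex 2, which methylates lysine 27 of histone H3. EED is the core subunit that binds this mark and without which the complex does not methylate, whereas in cells without EZH2 the related enzyme EZH1 can still work with EED.

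The edited genes were read first. In the EED knockout, Eed ran from 15.3 to 28.2 CPM over 15 libraries, against 246 to 393 CPM in those of 1A wild type. In the EZH2 knockout, Ezh2 ran from 14.5 to 19.9 CPM, against 194 to 278 CPM. Library totals ran from 2561169 to 11065948 assigned reads. All 6 stem cell identity markers (Pou5f1, Sox2, Nanog, Zfp42, Sall4 and Utf1, of which Nanog is itself 1 of the 10 factors) were detected in every group. Their summed level was 1883 to 3030 CPM in EED knockout libraries, below the 3097 to 4623 CPM of 1A wild type. EED knockout libraries also carried 2398 to 6201 CPM of 12 primitive endoderm markers, against 598 to 999 CPM in 1A wild type, and 1707 to 6157 CPM of 11 trophoblast markers, against 252 to 832 CPM. The 10 markers of fibroblasts and feeders summed to 155 to 1156 CPM in EED knockout libraries and 345 to 1061 CPM in 1A wild type, with Lum, Dcn or Postn at 0 in part of the groups. The 10 markers of 2-cell-like cells summed to 7.01 to 33.9 CPM in EED knockout libraries and 0 to 2.71 CPM in 1A wild type. In V19 they summed to 1.69 to 10.6 CPM, which overlaps with EED knockout. The part of these markers in the differences below was not tested. Of all libraries, 6 deviated from the mean of their group by a root mean square of more than 0.3 on the log2 scale. They came from 4 groups: V19 wild type at 48 h, 1A wild type at 24 and 48 h, and EED knockout at 12 h. In an alternative the farthest library of each of these groups was left out, and the other 2 were kept. Without these 4 libraries, 2 of the counts of called factors moved by more than 1.5 times. V19 against 1A wild type at 24 h had 4 higher and 2 lower in place of 1 and 2, while the shares of all genes were 15% higher and 14.4% lower in place of 7.4% and 6.38%. The difference of the 12 h response of EZH2 knockout had 5 lower in place of 3, while 2.67% of all genes were lower in place of 1.35%. In the table that the authors normalized by removal of unwanted variation (RUV), several differences between EED knockout and the other lines change direction, and these values stand beside the results.

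**Figure D1:**
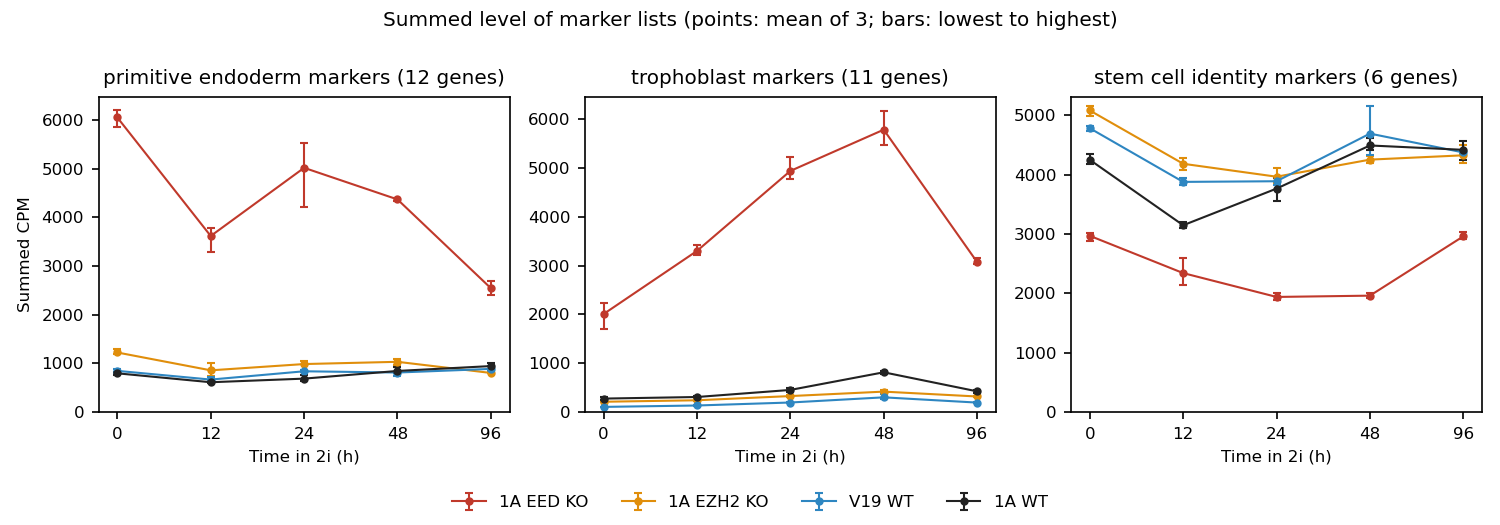
Summed CPM (vertical axis, linear, from 0) of 3 marker lists against the hours in 2i (horizontal axis) in the 4 lines; points are means of 3 libraries and bars run from the lowest to the highest library. EED knockout cells stand above the other lines for primitive endoderm and trophoblast markers and below them for stem cell identity markers at each of the 5 times.

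Promoter windows of RefSeq (GRCm38.p6, 250 bases before to 50 after the start of the gene) were held for 7 of the 10 factors, in 9 windows. Of these, 3 are shown because Nanog and Tfcp2l1 rise together in 2i across the groups, whereas Gbx2 falls. Capitals mark matches to the motifs searched on both strands: a composite octamer and SOX motif, chosen with the known element of Nanog in mind, and the KLF motif GGGNGTGG. The Nanog window lies at chr6:122707315-122707614 on the + strand, the Tfcp2l1 window at chr1:118627695-118627994 on the + strand and the Gbx2 window at chr1:89931127-89931426 on the - strand.
Nanog: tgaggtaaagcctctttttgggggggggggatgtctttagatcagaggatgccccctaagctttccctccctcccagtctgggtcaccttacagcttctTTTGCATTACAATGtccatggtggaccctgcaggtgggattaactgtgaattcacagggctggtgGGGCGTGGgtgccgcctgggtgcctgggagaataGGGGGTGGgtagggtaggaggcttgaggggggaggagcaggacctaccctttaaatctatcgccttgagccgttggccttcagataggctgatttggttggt
Tfcp2l1: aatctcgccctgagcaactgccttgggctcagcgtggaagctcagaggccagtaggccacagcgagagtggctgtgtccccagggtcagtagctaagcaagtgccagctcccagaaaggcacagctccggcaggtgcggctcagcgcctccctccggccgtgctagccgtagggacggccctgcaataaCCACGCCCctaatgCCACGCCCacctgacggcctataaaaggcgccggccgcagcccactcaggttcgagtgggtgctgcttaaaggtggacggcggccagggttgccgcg
Gbx2: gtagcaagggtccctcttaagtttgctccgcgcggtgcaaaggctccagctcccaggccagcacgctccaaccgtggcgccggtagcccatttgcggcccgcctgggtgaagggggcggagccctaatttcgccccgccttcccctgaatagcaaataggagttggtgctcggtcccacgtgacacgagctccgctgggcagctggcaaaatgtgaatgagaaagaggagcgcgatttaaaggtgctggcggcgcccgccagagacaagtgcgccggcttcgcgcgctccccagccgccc
The composite motif was present in 2 of 32851 windows of all genes (0.00609%), and both are overlapping windows of Nanog. The KLF motif was present in the 2 Nanog windows and in that of Tfcp2l1, against 17.6% of all windows. Of the other motifs, the STAT motif TTCNNNGAA was found in 1 window of Esrrb (8.3% of all windows). The octamer ATGCAAAT (1.74%), the nuclear receptor motif AAGGTCA (4.72%) and the TCF motif CTTTGAT (3.73%) were in none of the 9 windows. The Gbx2 window held no match to any motif. The same was true of the windows of Klf2, Klf4 and Nr0b1, which are not shown, and of the other window of Esrrb. A match is a description of these letters and no evidence of binding.

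Per length of the gene, Nanog, a homeobox factor at the centre of self-renewal, had the highest level of the 10 in 17 of the 20 groups, and Klf2 in the other 3. In TPM, which scales counts for gene length and library total, at 96 h, Nanog stood at 1044 ± 22.5 in EED knockout, 1185 ± 46.2 in EZH2 knockout, 1249.9 ± 35.7 in V19 wild type and 1021 ± 48.03 in 1A wild type. Gbx2 was the lowest of the 10 in all 4 lines at that time, with 22.4 ± 2.25, 49.6 ± 3.84, 27.01 ± 1.04 and 48.2 ± 0.708 TPM in the same order of lines. At 0 h, Prdm14 held the lowest place in every line, at 23.2 ± 3.07 TPM in EED knockout and 6.44 ± 0.854 TPM in 1A wild type.

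**Figure D2:**
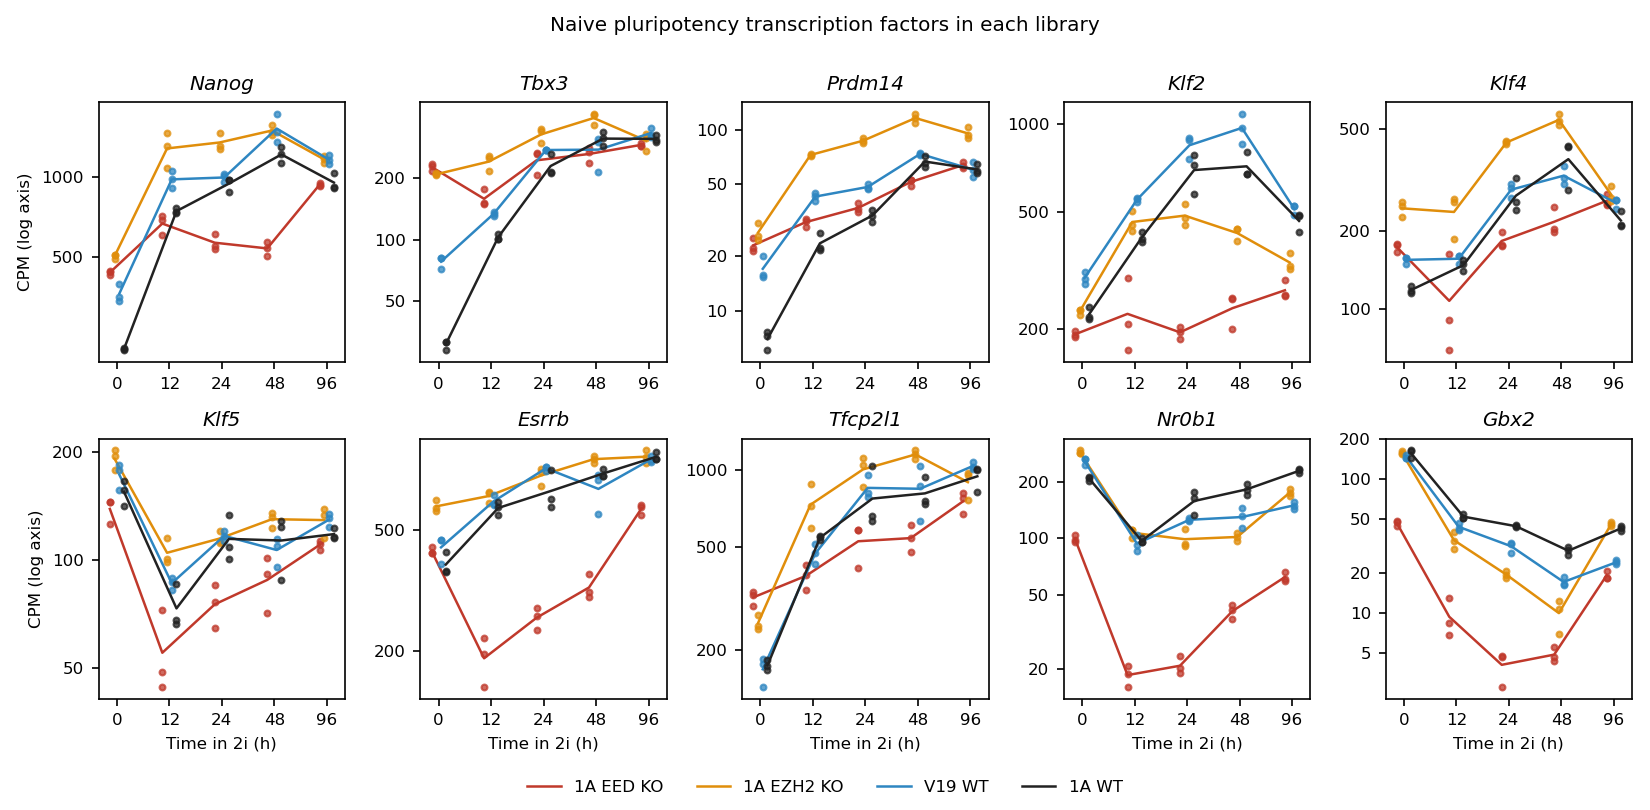
CPM of each of the 10 factors (vertical axis, log scale, its range set for each gene) against the hours in 2i (horizontal axis); each point is 1 library and each line joins the means of 3 in EED knockout, EZH2 knockout, V19 wild type and 1A wild type. Nanog, Tbx3, Prdm14 and Tfcp2l1 climb in the wild-type lines, Klf5 and Gbx2 drop at 12 h in all 4 lines, and EED knockout lies lowest for Esrrb, Nr0b1 and Gbx2 from 12 h on.

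Nanog (chromosome 6, 122684448 to 122691592, GRCm39) rose in 2i in every line and at every time, and its levels before 2i differed most from those after it in 1A wild type. Mean levels at 0, 12, 24, 48 and 96 h were 438, 669, 567, 539 and 939 CPM in EED knockout, 504, 1284, 1352, 1501 and 1166 CPM in EZH2 knockout, 364, 982, 998, 1526 and 1164 CPM in V19 and 226, 745, 947, 1219 and 955 CPM in 1A wild type. The single libraries of EED knockout held 937, 950.1 and 929.6 CPM at 96 h, against 445, 428 and 439 CPM at 0 h. Those of 1A wild type held 913, 919 and 1034 CPM at 96 h, against 226, 228 and 223 CPM at 0 h. Within each line the 96 h libraries lay above all 0 h libraries. The change at 96 h was 1.10 ± 0.08 (adjusted p = 6.8e-16) in EED knockout, 1.21 ± 0.08 (adjusted p = 1.6e-17) in EZH2 knockout, 1.68 ± 0.09 (adjusted p = 7.5e-23) in V19 and 2.08 ± 0.09 (adjusted p = 1.8e-26) in 1A wild type. Before 2i both knockouts were above 1A wild type, by 0.96 ± 0.08 (adjusted p = 7.9e-14) for EED knockout and 1.16 ± 0.08 (adjusted p = 6.5e-16) for EZH2 knockout, and V19 was above it by 0.69 ± 0.08 (adjusted p = 2.5e-08). At 48 h the EED knockout libraries were at 569, 542 and 507 CPM and those of 1A wild type at 1227, 1303 and 1127 CPM, without overlap (log2 fold change -1.18 ± 0.08, adjusted p = 1.8e-17). By 96 h this difference was no longer called (-0.02 ± 0.08, adjusted p = 0.82), whereas on the authors' RUV-normalized values EED knockout was above 1A wild type (0.34, adjusted p = 0.0046). Between 48 and 96 h Nanog rose in EED knockout (0.80 ± 0.08, adjusted p = 5.6e-11) and fell in 1A wild type (-0.35 ± 0.08, adjusted p = 9.9e-04).

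Tbx3 (chromosome 5, 119808600 to 119822789), a T-box factor that supports self-renewal, and Prdm14 (chromosome 1, 13183652 to 13197387), a PR-domain protein that represses FGF signalling and DNA methyltransferase genes, were the 2 factors with the largest rise in 1A wild type. Before 2i, Tbx3 was at 235, 218 and 229 CPM in EED knockout, 211, 206 and 210.0 CPM in EZH2 knockout, 80.8, 71.5 and 81.3 CPM in V19 and 28.6, 31.5 and 31.5 CPM in 1A wild type. The knockout libraries were thus all above those of both wild-type lines, and V19 was all above 1A wild type. At 96 h the 4 lines stood at 292 ± 6.40, 306 ± 29.8, 333 ± 18.6 and 312 ± 11.6 CPM, in the same order of lines. Against 1A wild type at 0 h the difference was 2.90 ± 0.11 (adjusted p = 2.3e-27) in EED knockout, 2.78 ± 0.11 (adjusted p = 1.2e-25) in EZH2 knockout and 1.35 ± 0.11 (adjusted p = 5.0e-13) in V19. None of the 3 differences was called at 96 h, where they were -0.10 ± 0.10, -0.03 ± 0.10 and 0.09 ± 0.10 with adjusted p from 0.41 to 0.88. On the authors' RUV-normalized values, however, Tbx3 in EED knockout was below 1A wild type at 96 h (-0.55, adjusted p = 1.1e-05).

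The rise of Tbx3 from 0 h to 96 h was unequal between lines. It came to 0.36 ± 0.10 (adjusted p = 0.0023) in EED knockout and 0.55 ± 0.10 (adjusted p = 6.9e-06) in EZH2 knockout, against 2.10 ± 0.10 (adjusted p = 3.8e-23) in V19 and 3.36 ± 0.11 (adjusted p = 6.5e-30) in 1A wild type. The difference of the response was -3.00 ± 0.15 (adjusted p = 6.8e-22) for EED knockout minus 1A wild type, -2.81 ± 0.15 (adjusted p = 1.6e-20) for EZH2 knockout and -1.26 ± 0.15 (adjusted p = 2.2e-07) for V19. In EED knockout Tbx3 first fell, to 150.5, 149 and 176 CPM at 12 h (-0.52 ± 0.10, adjusted p = 2.4e-05), whereas it rose by 12 h in 1A wild type, to 101, 106 and 101 CPM (1.75 ± 0.11, adjusted p = 1.8e-18).

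Before 2i, Prdm14 was likewise lowest in 1A wild type. It had its highest mean in EZH2 knockout, whose libraries overlapped with those of EED knockout. It was at 22.2, 21.4 and 25.3 CPM in EED knockout, 25.8, 24.5 and 30.7 CPM in EZH2 knockout, 20.003, 15.8 and 15.3 CPM in V19 and 7.25, 6.04 and 7.63 CPM in 1A wild type, whose libraries lay below all others. The differences from 1A wild type were 1.73 ± 0.12 (adjusted p = 3.1e-17) in EED knockout, 1.96 ± 0.12 (adjusted p = 9.3e-19) in EZH2 knockout and 1.31 ± 0.13 (adjusted p = 6.0e-11) in V19. At 96 h the libraries held 63.3, 61.4 and 66.6 CPM in EED knockout, 103, 89.8 and 93.4 CPM in EZH2 knockout, 59.5, 54.9 and 66.01 CPM in V19 and 64.5, 58.9 and 57.4 CPM in 1A wild type. EZH2 knockout alone of the 3 lines was then called against 1A wild type (0.66 ± 0.08, adjusted p = 6.0e-08), and its Prdm14 was above 1A wild type at each of the 5 times. The 96 h rise was 1.47 ± 0.09 in EED knockout, 1.82 ± 0.09 in EZH2 knockout, 1.81 ± 0.10 in V19 and 3.12 ± 0.11 in 1A wild type, all called.

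The 3 Krüppel-like factors, zinc finger proteins that bind GC-rich elements and can stand in for one another in self-renewal, did not move together. Klf2 (chromosome 8, 73072906 to 73075498), whose protein ERK marks for degradation, rose in all lines by 96 h. Klf4 (chromosome 4, 55527137 to 55536984), a STAT3 target and reprogramming factor, was called higher at 96 h in 3 of the 4 lines. Klf5 (chromosome 14, 99536127 to 99550848) was lower in 2i at each of the 4 times in each of the 4 lines. Klf2 means at 0, 12, 24, 48 and 96 h were 191, 225, 194, 235 and 271 CPM in EED knockout, 229, 464, 488, 425 and 337 CPM in EZH2 knockout, 298, 553, 849, 973 and 514 CPM in V19 and 224, 410.0, 698, 719 and 468 CPM in 1A wild type. At 24 h the EED knockout libraries were at 195, 203 and 185 CPM and those of 1A wild type at 579.8, 727 and 788 CPM, without overlap. Klf2 in EED knockout was below 1A wild type at 12, 24, 48 and 96 h but not called at 0 h (-0.23 ± 0.12, adjusted p = 0.095). The 0 h difference passed with the farthest library of each of the 4 groups left out (-0.22, adjusted p = 0.021) and with the 2 groups compared alone (-0.20, adjusted p = 0.0062). The largest of these differences was -1.84 ± 0.12 (adjusted p = 2.4e-19) at 24 h, and the one at 96 h was -0.79 ± 0.11 (adjusted p = 6.6e-08). On the RUV-normalized values the difference at 96 h turned to 0.24 (adjusted p = 0.14), and that at 0 h to 0.66 (adjusted p = 1.5e-05). EZH2 knockout was below 1A wild type in Klf2 at 24, 48 and 96 h, with -0.76 ± 0.11 (adjusted p = 9.3e-07) at 48 h. In both wild-type lines Klf2 passed its peak, with a change from 48 to 96 h of -0.92 ± 0.11 (adjusted p = 1.3e-08) in V19 and -0.62 ± 0.11 (adjusted p = 4.0e-05) in 1A wild type.

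The highest mean of Klf4 came at 48 h in EZH2 knockout and in both wild-type lines. The step from 24 to 48 h was called in 1A wild type (0.48 ± 0.15, adjusted p = 0.020), and not in EZH2 knockout (0.29 ± 0.14, adjusted p = 0.27) or V19 (0.18 ± 0.15, adjusted p = 0.39). In both wild-type lines the libraries at 48 h overlapped with those at 24 h. EZH2 knockout libraries held 535, 519 and 571 CPM at 48 h, against 250.0, 228 and 259 CPM at 0 h. 1A wild-type libraries held 429.8, 426 and 288 CPM at 48 h, against 118, 115 and 122 CPM at 0 h. In each of these pairs the later libraries lay above the earlier. The 48 h change was 1.14 ± 0.15 (adjusted p = 3.3e-09) in EZH2 knockout and 1.70 ± 0.15 (adjusted p = 9.4e-14) in 1A wild type. It was not called in EED knockout (0.33 ± 0.15, adjusted p = 0.062), whose Klf4 was below 1A wild type at that time (-0.82 ± 0.15, adjusted p = 3.8e-06). At 96 h the lines stood at 263 ± 13.4 CPM in EED knockout, 277 ± 20.9 CPM in EZH2 knockout, 258 ± 12.4 CPM in V19 and 220.3 ± 17.5 CPM in 1A wild type. The change from 0 h was then called in EED knockout (0.60 ± 0.15, adjusted p = 8.4e-04), V19 (0.73 ± 0.15, adjusted p = 4.9e-05) and 1A wild type (0.90 ± 0.15, adjusted p = 1.6e-06) but not in EZH2 knockout (0.17 ± 0.14, adjusted p = 0.35). At 12 h Klf4 in EED knockout was called lower than at 0 h (-0.67) and lower than in 1A wild type. The EED knockout libraries at 12 h were spread over 68.96, 90.3 and 163 CPM and overlapped with those of 1A wild type. Replicate 1 of this group was among the libraries left out in the alternative.

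Klf5 was at 44.5, 48.9 and 72.5 CPM in EED knockout at 12 h, against 145, 126 and 145 CPM at 0 h. It was at 85.7, 68.4 and 66.3 CPM in 1A wild type at 12 h, against 142, 157 and 166 CPM at 0 h. In both lines the 12 h libraries lay below the 0 h libraries. The change at 12 h was -1.31 ± 0.13 (adjusted p = 5.8e-12) in EED knockout, -0.87 ± 0.12 (adjusted p = 3.9e-08) in EZH2 knockout, -1.004 ± 0.13 (adjusted p = 3.0e-09) in V19 and -1.07 ± 0.13 (adjusted p = 8.7e-10) in 1A wild type. At 96 h it was smaller in all 4 lines, from -0.56 ± 0.12 in EZH2 knockout to -0.33 ± 0.12 in EED knockout. The call in EED knockout at 96 h (adjusted p = 0.027) was lost when replicate 1 or 3 at 0 h or replicate 2 or 3 at 96 h was left out, with values of -0.34 to -0.30, and on the RUV-normalized values (-0.24, adjusted p = 0.16). No difference of response between a line and 1A wild type was called for Klf5 at any of the 4 times.

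Esrrb (chromosome 12, 86407891 to 86568402), an orphan nuclear receptor and a main target of Tcf7l1, rose from 12 h on in both wild-type lines and from 24 h on in EZH2 knockout. In EED knockout it was lower at 12, 24 and 48 h and higher at 96 h. The EED knockout libraries were at 438, 419 and 420.0 CPM at 0 h, 152, 195 and 219.8 CPM at 12 h and 596, 559 and 605 CPM at 96 h. Those of 1A wild type were at 362, 366 and 424 CPM at 0 h, 593, 615 and 561 CPM at 12 h and 851, 898 and 852 CPM at 96 h. The 2 lines overlapped at 0 h and were apart at 12 and 96 h, with EED knockout lower. The change at 12 h was -1.17 ± 0.10 (adjusted p = 4.3e-14) in EED knockout and 0.62 ± 0.10 (adjusted p = 6.3e-07) in 1A wild type, a difference of response of -1.79 ± 0.14 (adjusted p = 4.3e-14). At 96 h Esrrb had risen by 0.46 ± 0.10 (adjusted p = 9.4e-05) in EED knockout and by 1.18 ± 0.10 (adjusted p = 7.2e-15) in 1A wild type. EED knockout remained below 1A wild type at 96 h (-0.56 ± 0.10, adjusted p = 1.9e-06), whereas on the RUV-normalized values it was above it (0.37, adjusted p = 0.0045). EZH2 knockout was above 1A wild type at 0 h (0.64 ± 0.10, adjusted p = 7.2e-07) and not called against it at the 4 later times.

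Tfcp2l1 (chromosome 1, 118555646 to 118612898), a grainyhead-family factor downstream of STAT3, had the largest rise of the 10 factors at 96 h in V19. Its libraries there held 1070.1, 1006 and 1021 CPM at 96 h, against 178, 145 and 184 CPM at 0 h (2.61 ± 0.16, adjusted p = 1.1e-19). In EED knockout they held 813, 673 and 779 CPM at 96 h, against 329, 296 and 337 CPM at 0 h (1.24 ± 0.15, adjusted p = 2.0e-09). Here too the 0 h level was higher in the knockouts than in 1A wild type, by 0.88 ± 0.15 (adjusted p = 3.9e-06) in EED knockout and 0.55 ± 0.15 (adjusted p = 0.0058) in EZH2 knockout. V19 was not called (-0.05 ± 0.15, adjusted p = 0.91). At 12, 24 and 48 h EED knockout was below 1A wild type, with -0.57 ± 0.15 (adjusted p = 8.1e-04) at 48 h. At 96 h the difference of -0.32 ± 0.15 (adjusted p = 0.062) was not called with all libraries. It passed when replicate 3 of 1A wild type at 96 h was left out (-0.41, adjusted p = 0.033) and when replicate 1 of 1A wild type at 24 h was left out (-0.32, adjusted p = 0.038). It also passed without the filter on low counts, with the 2 groups compared alone, and with the farthest library of each of the 4 groups left out, where adjusted p ran from 4.3e-04 to 0.012.

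Nr0b1 (chromosome X, 85235381 to 85239553), also called Dax1, is an orphan nuclear receptor that binds Oct4 and restrains genes of the 2-cell state. It fell at 12 h in all 4 lines and was lower in EED knockout than in 1A wild type at all 5 times. Before 2i it was at 98.4, 104 and 95.7 CPM in EED knockout, 286, 288 and 296 CPM in EZH2 knockout, 267, 266 and 248 CPM in V19 and 214, 211 and 203 CPM in 1A wild type. At 12 h the libraries held 20.8, 18.7 and 16.02 CPM in EED knockout and 95.3, 95.3 and 101 CPM in 1A wild type. EED knockout was below the others without overlap at both times. The change at 12 h was -2.45 ± 0.10 (adjusted p = 1.7e-25) in EED knockout and -1.11 ± 0.09 (adjusted p = 3.5e-15) in 1A wild type. From there Nr0b1 returned to 231 ± 6.83 CPM in 1A wild type at 96 h, a level not called against 0 h (0.14 ± 0.09, adjusted p = 0.18). It was called lower at 96 h in EED knockout (-0.68 ± 0.09, adjusted p = 2.0e-08), EZH2 knockout (-0.72 ± 0.09, adjusted p = 5.9e-10) and V19 (-0.79 ± 0.09, adjusted p = 7.1e-11). With the RUV-normalized values the change at 96 h was not called in EED knockout (-0.23, adjusted p = 0.067) and was a called rise in 1A wild type (0.31, adjusted p = 0.0079). The difference of EED knockout from 1A wild type was -1.08 ± 0.09 (adjusted p = 5.3e-15) at 0 h, -2.94 ± 0.10 (adjusted p = 1.8e-30) at 24 h and -1.89 ± 0.09 (adjusted p = 6.3e-24) at 96 h. On the RUV-normalized values these were 0.62 (adjusted p = 1.5e-06) at 0 h, -1.004 (adjusted p = 6.7e-11) at 24 h and 0.09 (adjusted p = 0.58) at 96 h.

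Gbx2 (chromosome 1, 89855684 to 89858898), a homeobox factor that LIF and STAT3 induce, fell in every line and had the widest range of the 10, with 38.98-fold between its highest and lowest group means. Means at 0, 12, 24, 48 and 96 h were 47.01, 9.33, 4.07, 4.86 and 19.04 CPM in EED knockout, 159, 34.9, 19.3, 9.93 and 46.2 CPM in EZH2 knockout, 147, 43.98, 31.5, 17.004 and 23.8 CPM in V19 and 157, 52.4, 44.5, 29.1 and 42.8 CPM in 1A wild type. At 24 h the EED knockout libraries were at 4.74, 4.68 and 2.79 CPM and those of 1A wild type at 44.6, 43.5 and 45.3 CPM, without overlap. The lowest mean came at 48 h in EZH2 knockout and both wild-type lines, while in EED knockout the libraries at 24 h overlapped with those at 48 h. The change at 48 h was -3.29 ± 0.15 (adjusted p = 2.2e-24) in EED knockout, -3.97 ± 0.12 (adjusted p = 1.1e-31) in EZH2 knockout, -3.10 ± 0.12 (adjusted p = 4.1e-27) in V19 and -2.44 ± 0.11 (adjusted p = 1.8e-24) in 1A wild type. From 48 to 96 h Gbx2 rose again in all 4 lines, by 1.98 ± 0.17 (adjusted p = 1.0e-13) in EED knockout, 2.19 ± 0.13 (adjusted p = 4.5e-19) in EZH2 knockout, 0.48 ± 0.14 (adjusted p = 0.007) in V19 and 0.57 ± 0.12 (adjusted p = 2.6e-04) in 1A wild type. EZH2 knockout was not called against 1A wild type at 0 h (0.02 ± 0.10, adjusted p = 0.92) or at 96 h (0.11 ± 0.11, adjusted p = 0.57), but was lower at 12, 24 and 48 h. EED knockout was lower at all 5 times, with -1.73 ± 0.10 (adjusted p = 6.5e-20) at 0 h and -1.17 ± 0.12 (adjusted p = 4.9e-12) at 96 h. On the RUV-normalized values it was higher at 96 h (1.10, adjusted p = 4.6e-07) and not called at 0 h (0.20, adjusted p = 0.43).

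**Figure D3:**
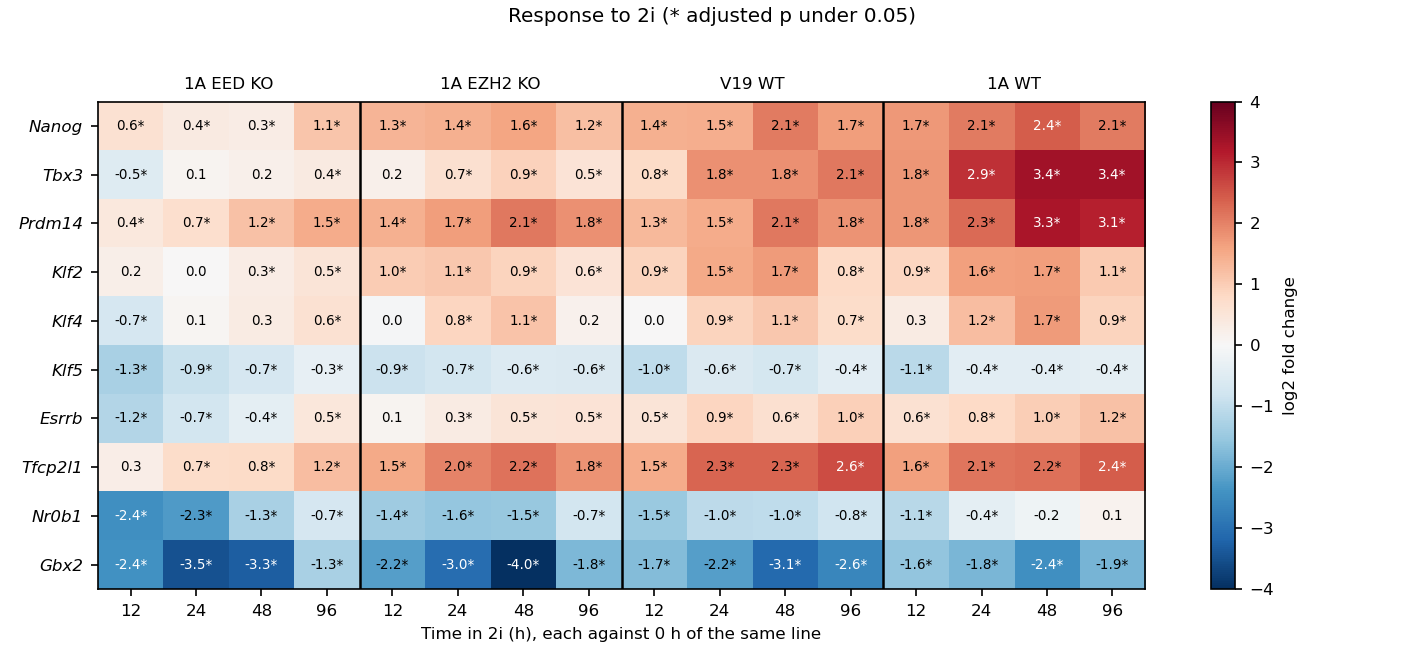
Log2 fold change of each of the 10 factors (rows) at 12, 24, 48 and 96 h of 2i against 0 h of the same line (columns, 4 lines), coloured from blue (lower) over white to red (higher), with the value in each cell and a star at an adjusted p under 0.05. Of the 160 cells 145 are starred, and Klf5 and Gbx2 are lower in all 16 columns.

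Over all 16 comparisons of a time in 2i with 0 h of the same line, 145 of 160 tests of the factors were called, 94 higher and 51 lower. Over all genes tested, 46.2% of such tests were called, 24.2% higher and 21.9% lower. A percentage in parentheses after a count is the share of all tested genes called in that direction. At 96 h in EED knockout 7 factors were higher (23.3% of all genes) and 3 lower (16.4%). In EZH2 knockout 6 were higher (22.2%) and 3 lower (20.7%). In V19 7 were higher (24.8%) and 3 lower (22.7%). In 1A wild type 7 were higher (25.1%) and 2 lower (23.5%). The median log2 fold change of the 10 at 96 h was 0.48 in EED knockout, 0.55 in EZH2 knockout, 0.87 in V19 and 1.12 in 1A wild type, where the median of all genes was 0.05, 0.02, 0.01 and 0.02 in the same order. At 12 h EED knockout had 2 factors higher (25.2%) and 6 lower (25.2%), against 6 higher (20%) and 3 lower (20.8%) in 1A wild type. Sums of marker lists also changed in 2i. The fibroblast and feeder markers averaged 1042 CPM at 96 h and 438 CPM at 0 h in EED knockout, 825 and 617 CPM in EZH2 knockout, 1164 and 471 CPM in V19 and 1008 and 557 CPM in 1A wild type. The libraries of the 2 times overlapped in EZH2 knockout and were apart in the other 3 lines. In 1A wild type most of this sum was Fn1, at 940 ± 58.5 CPM at 96 h and 524 ± 76.4 CPM at 0 h. The trophoblast markers averaged 814 CPM at 48 h and 276 CPM at 0 h in 1A wild type. The part of these markers in the responses was not tested. Between successive times, 67 of 120 tests were called, 49 higher and 18 lower, against 25% of such tests over all genes in either direction. In the single steps 3.01% to 24.7% of all genes were higher and 2.95% to 18.4% lower.

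Set against 1A wild type at the same time, EED knockout cells had more of part of these factors before 2i and less of all 10 at 48 h. At 0 h 5 were higher (26.4% of all genes), namely Nanog, Tbx3, Prdm14, Klf4 and Tfcp2l1, and 2 were lower (23.3%), namely Nr0b1 and Gbx2. At 12 h 2 were higher (28.6%) and 7 lower (26.1%). At 24 h 0 were higher (33.6%) and 8 lower (29.2%), and at 48 h 0 were higher (36.2%) and 10 lower (29.7%). For Klf5 the EED knockout libraries at 48 h (71.4 to 101.5 CPM) overlapped with those of wild type (88.2 to 128 CPM in 1A and V19 together). At 96 h 4 were lower (24.4%), namely Klf2, Esrrb, Nr0b1 and Gbx2, and none was higher (30.9%). The primitive endoderm markers summed to 5856 to 6201 CPM in EED knockout and 751 to 824 CPM in 1A wild type at 0 h, and to 4341 to 4395 CPM and 795 to 929 CPM at 48 h. The trophoblast markers summed to 1707 to 2237 CPM in EED knockout and 252 to 305 CPM in 1A wild type at 0 h, and to 5466 to 6157 CPM and 779 to 832 CPM at 48 h. Most of the trophoblast sum in EED knockout at 0 h was Krt8 (746 ± 97.6 CPM) and Krt18 (767 ± 127 CPM). In 1A wild type these were at 114 ± 12.1 and 110 ± 11.9 CPM. On the RUV-normalized values Krt7, Krt8 and Krt18 were lower in EED knockout than in 1A wild type at 0 h, while Hand1 stayed higher. The part of both marker lists in the result was not tested. On the RUV-normalized values 8 factors were higher (8.71% of all genes) and 0 lower (8.22%) at 0 h, and 3 higher (12.4%) and 2 lower (8.73%) at 12 h. The counts were 0 higher (3.32%) and 7 lower (4.2%) at 24 h, 0 higher (9.63%) and 7 lower (15.2%) at 48 h, and 5 higher (11.1%) and 1 lower (8.51%) at 96 h. With the farthest library of each of those 4 groups left out, 1 higher (32.3%) and 5 lower (26.6%) were called at 96 h.

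EZH2 knockout cells had more of 7 factors than 1A wild type before 2i (11.9% of all genes higher) and less of none (10.9% lower). The 7 were Nanog, Tbx3, Prdm14, Klf4, Esrrb, Tfcp2l1 and Nr0b1. At that time the sum of the primitive endoderm markers lay between 1184 and 1289 CPM in EZH2 knockout libraries, against 751 to 824 CPM in those of 1A wild type. That of the stem cell identity markers, Nanog among them, lay between 4994 and 5149 CPM in EZH2 knockout libraries, against 4181 to 4344 CPM in those of 1A wild type. Their part in the result was not tested. The counts were 6 higher (13.8%) and 1 lower (11.4%) at 12 h, 4 higher (15.6%) and 3 lower (13.7%) at 24 h, and 5 higher (17%) and 3 lower (15.2%) at 48 h. At 96 h 2 were higher (6.56%), Nanog and Prdm14, and 2 lower (6.65%), Klf2 and Nr0b1. The call for Nanog (0.29 ± 0.08, adjusted p = 0.013) was lost when replicate 1 of EZH2 knockout or replicate 1 or 2 of 1A wild type at 96 h was left out, at 0.26 in each case, and without the filter on low counts (adjusted p = 0.054). V19, the second wild-type line, had 5 factors above 1A wild type at 0 h (5.01%) and 0 below (5.53%), and 1 above (4.16%) and 2 below (3.3%) at 96 h. Of the 5 at 0 h, Nanog, Tbx3 and Prdm14 were also called on the RUV-normalized values, whereas Klf2 (0.28, adjusted p = 0.13) and Nr0b1 (0.06, adjusted p = 0.79) were not. The call for Klf2 was also lost when replicate 1 or 3 of 1A wild type or replicate 2 of V19 at 0 h was left out (0.37 to 0.39, adjusted p from 0.054 to 0.065), and that for Nr0b1 without the filter on low counts (adjusted p = 0.099). Of the 3 at 96 h, Nr0b1 (-0.61 ± 0.09, adjusted p = 1.1e-06) and Gbx2 (-0.84 ± 0.12, adjusted p = 1.2e-06) were the 2 below. The 1 above was Nanog (0.29 ± 0.08, adjusted p = 0.022). Its call was lost without the filter on low counts (adjusted p = 0.13), on the RUV-normalized values (adjusted p = 0.086), and when replicate 2 or 3 of V19 or replicate 1 or 2 of 1A wild type at 96 h was left out (adjusted p from 0.066 to 0.13). The comparisons of EED knockout, EZH2 knockout and V19 with 1A wild type share its libraries, so a high or low value there enters all 3.

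**Figure D4:**
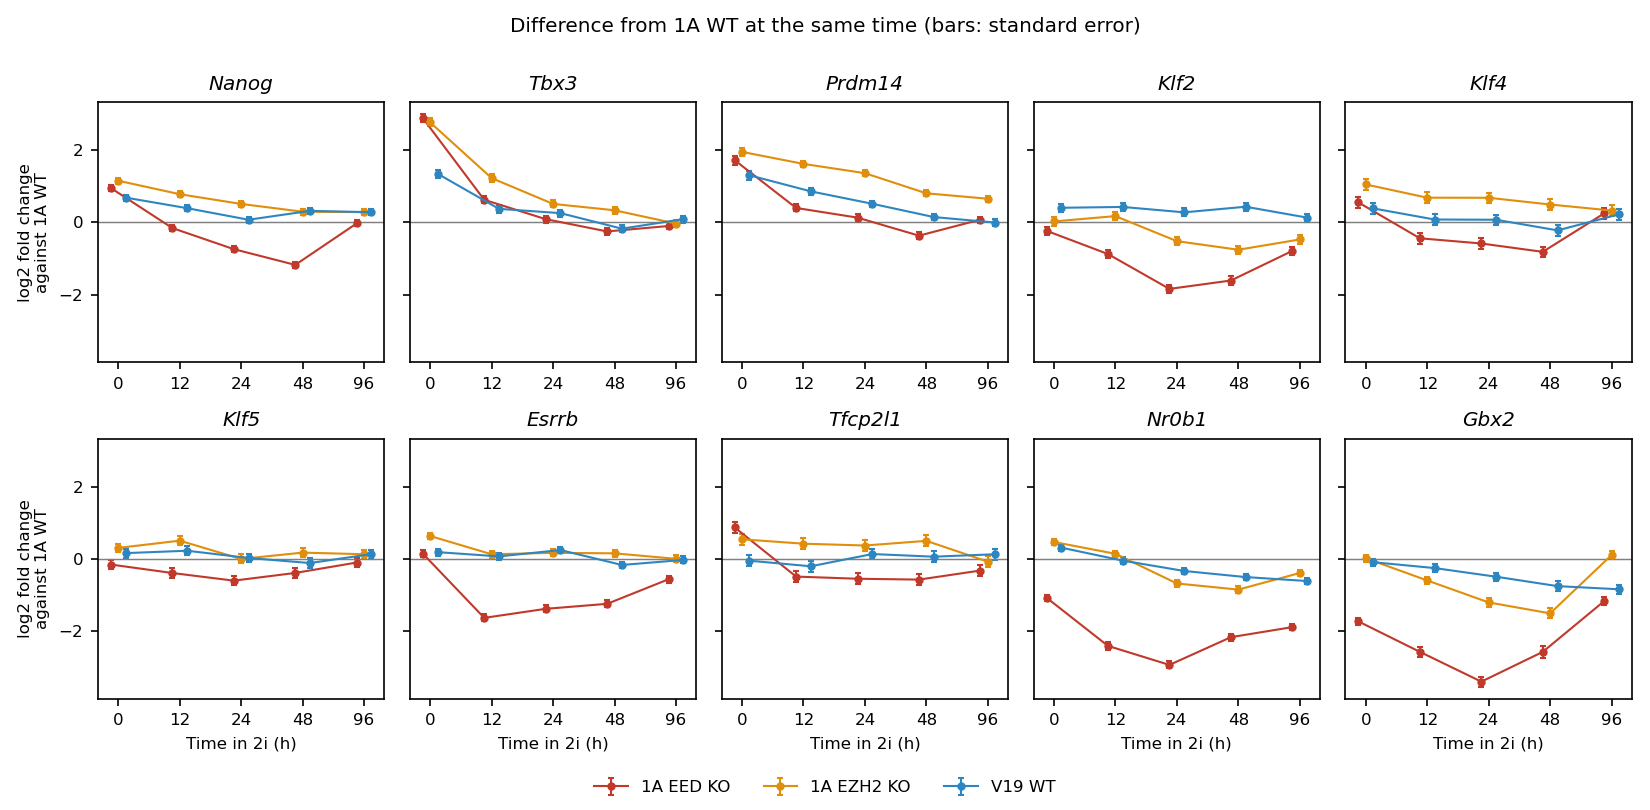
Log2 fold change of EED knockout, EZH2 knockout and V19 wild type against 1A wild type at the same time (vertical axis, shared by all panels, with SE bars) for each of the 10 factors, against the hours in 2i (horizontal axis). Tbx3 and Prdm14 start above the zero line in all 3 lines and lie nearer to it at 96 h than at 0 h, with Prdm14 of EED knockout below it at 48 h, while Klf2, Esrrb, Nr0b1 and Gbx2 of EED knockout lie below it from 12 h to 96 h.

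The 2 knockouts were also set against each other. At 0 h 7 factors were lower in EED knockout than in EZH2 knockout (21.7% of all genes) and none was higher (23.6%). At 12, 24 and 48 h all 10 were lower, where 24.2%, 24.3% and 27.1% of all genes were lower, and at 96 h 6 were lower (24%). Nanog at 48 h stood at 569, 542 and 507 CPM in EED knockout and 1576, 1485 and 1441 CPM in EZH2 knockout (-1.48 ± 0.08, adjusted p = 3.7e-21). Prdm14 at 48 h stood at 52.7, 48.8 and 52.7 CPM in EED knockout and 122, 116 and 109 CPM in EZH2 knockout (-1.18 ± 0.08, adjusted p = 2.3e-17). Both genes were apart in the 2 lines without overlap. At 0 h the count ran from 5 to 8 when 1 library was left out, and the calls for Nanog (-0.20 ± 0.08, adjusted p = 0.041) and Prdm14 (-0.23 ± 0.10, adjusted p = 0.0495) were also lost with RLE scaling, with DESeq2, without the filter on low counts and with a mean of at least 1 CPM. At 96 h the call for Klf2 (-0.32 ± 0.11, adjusted p = 0.018) was lost with RLE scaling (adjusted p = 0.051), with DESeq2 (adjusted p = 0.0501) and when replicate 1 or 3 of EED knockout or replicate 1 of EZH2 knockout was left out (adjusted p from 0.067 to 0.097). It turned to 0.70 (adjusted p = 6.5e-06) on the RUV-normalized values. The RUV-normalized values gave 1 higher (4.91% of all genes) and 1 lower (4.87%) at 0 h, 0 higher (4.44%) and 8 lower (5.1%) at 12 h, and 0 higher (4.09%) and 8 lower (6.29%) at 24 h. They gave 2 higher (10.1%) and 6 lower (11.7%) at 48 h and 4 higher (10.6%) and 2 lower (4.73%) at 96 h.

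Whether the response to 2i itself differed from that of 1A wild type was tested as a difference of log2 fold changes. Such a difference equals the line's difference from 1A wild type at the later time minus the one at 0 h. It is thus not independent of the differences at 0 h given above. A level above 1A wild type at 0 h by itself makes it lower. Over the 3 other lines and 4 times, 73 of 120 tests of the factors were called, 1 higher and 72 lower. Over all genes 11.7% of such tests were called in either direction. In the single comparisons 0.053% to 19.2% of all genes were higher and 0.0663% to 16.3% lower. At 96 h, EED knockout had a response called higher in 1 factor (14.9% of all genes), Gbx2, and lower in 7 (12.4%). EZH2 knockout had 8 lower (6.76%) and none higher (5.42%), and V19 had 4 lower (0.709%) and none higher (0.975%). For Nanog the differences were -0.98 ± 0.12 (adjusted p = 3.2e-09) in EED knockout, -0.87 ± 0.12 (adjusted p = 2.0e-07) in EZH2 knockout and -0.41 ± 0.12 (adjusted p = 0.063) in V19. That for Gbx2 in EED knockout was 0.57 ± 0.16 (adjusted p = 0.005). The calls for Klf2 and Tfcp2l1 in EZH2 knockout turned on single libraries. That for Klf2 was lost in 8 of the fits that left out 1 library (-0.50 to -0.47, adjusted p from 0.054 to 0.078), and that for Tfcp2l1 in 10 (-0.66 to -0.52, adjusted p from 0.051 to 0.14). The differences use the same 0 h and 96 h libraries of 1A wild type. As a description, the median over the 10 factors of the fold between the highest and lowest line mean was 2.16 at 0 h, 2.41 at 12 h, 2.50 at 24 h, 2.57 at 48 h and 1.42 at 96 h. Not all factors followed this median: the fold was wider at 96 h than at 0 h for Nr0b1 (3.71 and 2.92) and Klf2 (1.90 and 1.56).

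**Figure D5:**
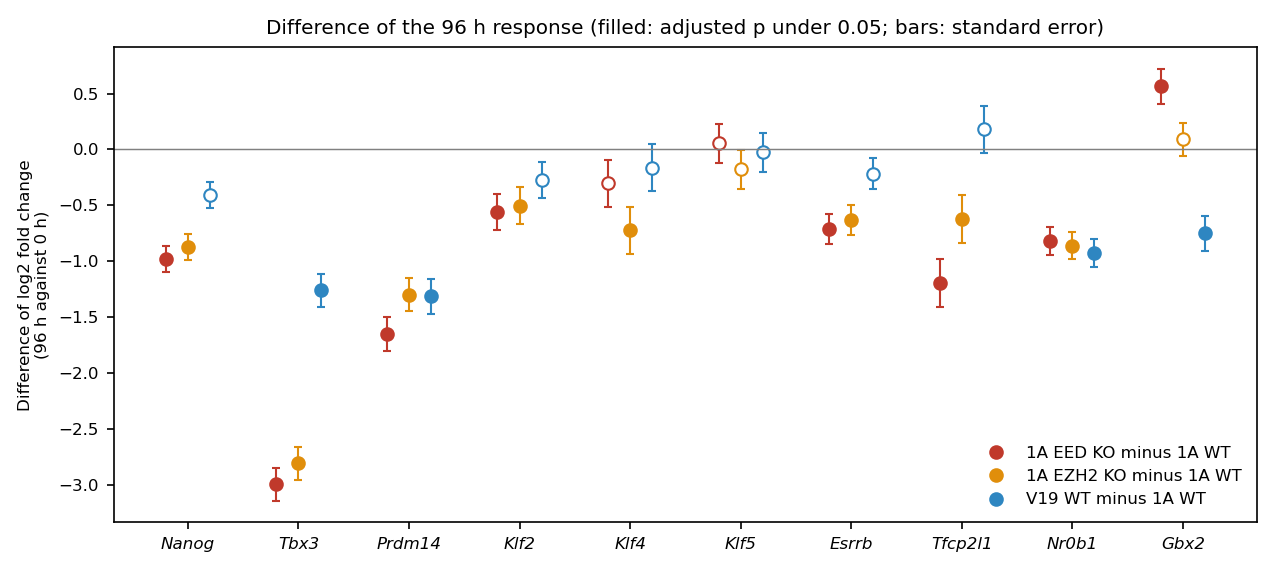
Difference of the log2 fold change at 96 h against 0 h (vertical axis, with SE bars) between EED knockout, EZH2 knockout or V19 wild type and 1A wild type for each of the 10 factors (horizontal axis); filled points have an adjusted p under 0.05. Tbx3 has the lowest values in both knockouts, at -3.00 and -2.81, and Gbx2 of EED knockout is the filled point above 0.

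Across the 20 groups, most neighbouring groups in the order of a factor's levels were not apart. Ordered by mean CPM, the libraries of neighbouring groups overlapped in 13 of 19 pairs for Nanog, 12 for Tbx3, 11 for Prdm14, 13 for Klf2, 15 for Klf4, 19 for Klf5, 14 for Esrrb, 13 for Tfcp2l1, 11 for Nr0b1 and 12 for Gbx2. 1A wild type at 0 h had the lowest mean of all 20 groups for Nanog, Tbx3 and Prdm14, while EED knockout at 12 h had the lowest for Klf4, Klf5, Esrrb and Nr0b1. For Klf4, Klf5 and Nr0b1 the libraries of EED knockout at 12 h overlapped with those of the next group. The group with the highest mean was EZH2 knockout for 8 of the 10, at 48 h for Tbx3 (395 ± 27.7 CPM), Prdm14 (116 ± 6.34 CPM), Klf4 (542 ± 26.4 CPM) and Tfcp2l1 (1146 ± 45.1 CPM). The highest EZH2 knockout group was the one at 0 h for Klf5, Nr0b1 and Gbx2, and the one at 96 h for Esrrb. For Klf5, Esrrb and Gbx2 the libraries of that highest group overlapped with those of the next group. Over the 20 group means of log2 CPM, which share lines and times and are given as a description, 7 of 45 pairs of factors had a Pearson r above 0.8 and 12 an r below 0. The closest pairs were Nanog with Tfcp2l1 (r = 0.91) and with Prdm14 (r = 0.91). Nr0b1 was closest to Klf5 (r = 0.83) and Gbx2 (r = 0.82). Genes tested with a mean of at least 5 CPM were searched for likeness, with Gm, Rik and other predicted symbols left out. Of these the most like Nanog was Jam2 (r = 0.977), a junctional adhesion molecule. The most like Tfcp2l1 was Kit (r = 0.977), a receptor tyrosine kinase, the most like Nr0b1 was Mybl2 (r = 0.965), and the most like Gbx2 was Ddx39b (r = 0.957), an RNA helicase.

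Other genes of the pluripotency states moved in different directions in 1A wild type at 96 h. Over all genes 25.1% rose and 23.5% fell, against which the counts of each list at 96 h are read. Of 13 further naive genes, 11 rose and 2 fell of 13 tested, with a median log2 fold change of 0.69, against 0.02 over all genes. Jam2 was at 318 ± 10.6 CPM at 96 h and 47.4 ± 1.76 CPM at 0 h (2.75 ± 0.08, adjusted p = 1.7e-32). Tcl1, an AKT cofactor, was at 80.2 ± 1.85 CPM at 96 h and 20.96 ± 1.04 CPM at 0 h (1.93 ± 0.11, adjusted p = 4.2e-21). Zfp42, the gene of the marker Rex1, was at 492 ± 19.7 CPM at 96 h and 304 ± 12.9 CPM at 0 h (0.69 ± 0.06, adjusted p = 4.8e-14). Of the core pluripotency genes, 0 rose and 6 fell of 9 tested, among them Utf1 (-2.06 ± 0.09, adjusted p = 2.5e-25) and Lin28a (-1.70 ± 0.09, adjusted p = 7.3e-23), an inhibitor of let-7 processing. Of the formative and primed genes, 0 rose and 8 fell of 10 tested, with a median of -2.26. Their lowest adjusted p belonged to the DNA methyltransferase Dnmt3a (-3.66 ± 0.11, adjusted p = 4.0e-32) and to Pou3f1 (-4.45 ± 0.16, adjusted p = 1.2e-28), a POU factor of the epiblast.

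The signalling genes that the inhibitors act on were read in the same comparison. Of the ERK targets, 0 rose and 7 fell of 8 tested, with a median of -2.54. The phosphatase gene Dusp6 changed by -3.25 ± 0.11 (adjusted p = 9.0e-30) and Egr1 by -7.78 ± 0.31 (adjusted p = 7.4e-27). Of the Wnt pathway genes, 3 rose and 2 fell of 10 tested (25.1% and 23.5% of all genes), with Axin2, a target of beta-catenin, at 0.78 ± 0.14 (adjusted p = 1.0e-05) and Lef1 at -4.61 ± 0.22 (adjusted p = 7.5e-24). Of the LIF and STAT3 genes, 2 rose and 2 fell of 7 tested (25.1% and 23.5%), with the LIF receptor gene Lifr at -0.63 ± 0.12 (adjusted p = 8.1e-06) and Socs3, the feedback inhibitor, at -0.25 ± 0.07 (adjusted p = 0.0023). Of the relatives of the 10 factors, 8 rose and 12 fell of 36 tested (25.1% and 23.5%), with a median of -0.12. Klf8 had the smallest adjusted p among those that rose (1.67 ± 0.13, adjusted p = 2.7e-16).

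Before 2i the same lists were read in the knockouts against 1A wild type, where 26.4% of all genes were higher and 23.3% lower in EED knockout, and 11.9% higher and 10.9% lower in EZH2 knockout. Of the 13 further naive genes, 6 were higher and 4 lower of 13 in EED knockout and 5 were higher and 2 lower of 13 in EZH2 knockout. Jam2 was above 1A wild type in both, by 0.80 ± 0.08 (adjusted p = 3.1e-12) in EED knockout and 1.51 ± 0.08 (adjusted p = 2.7e-21) in EZH2 knockout. Of the core pluripotency genes, 0 were higher and 9 lower of 9 in EED knockout and 3 were higher and 1 lower of 9 in EZH2 knockout. Of these 4 calls in EZH2 knockout, that for Pou5f1 was lost in 5 of the fits that left out 1 library, that for Lin28a in 5 and that for Trim28 in 1, with adjusted p up to 0.12. Sox2, the partner of Oct4, was lower in EED knockout (-0.89 ± 0.06, adjusted p = 4.9e-19), a difference that the RUV-normalized values give as 0.13 (adjusted p = 0.14). Lin28a and Pou5f1 in EED knockout also changed direction on the RUV-normalized values, whereas Dppa4 and Utf1 kept theirs. Of the ERK targets, 1 was higher and 7 lower of 8 in EED knockout and 3 were higher and 1 lower of 8 in EZH2 knockout. Egr1 was lower in both (-1.99 ± 0.16, adjusted p = 2.2e-15 in EED knockout, and -0.75 ± 0.14, adjusted p = 4.5e-05 in EZH2 knockout). The call for Egr1 in EZH2 knockout was lost on the RUV-normalized values (adjusted p = 0.38), where Dusp6 in EED knockout turned to 0.52 (adjusted p = 0.084). Of the primitive endoderm markers, 12 were higher and 0 lower of 12 in EED knockout and 11 were higher and 0 lower of 12 in EZH2 knockout. The endoderm factor Gata6 was at 4.16 ± 0.19 (adjusted p = 1.1e-24) in EED knockout and 1.39 ± 0.24 (adjusted p = 6.8e-06) in EZH2 knockout, and on the RUV-normalized values at 1.21 (adjusted p = 0.044) in EED knockout and 1.27 (adjusted p = 0.031) in EZH2 knockout.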

How the data were processed

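RNA of 60 libraries (20 groups of 3 biological replicates) was measured as poly(A) RNA-seq with single reads. The authors deposited whole-number counts of reads for each gene. Per the submitters' notes on processing, the tools were MultiQC 1.14, STAR 2.7.10b, DESeq2 and featureCounts 2.0.3, with GRCm39 as the build. A strand setting is not given in the sources used here. They also deposited RUV-normalized values rounded to whole numbers, handled as a score because the number of factors removed is not given in the sources used here. The transformed table was not used here.

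From the counts, edgeR 4.0.16 in R 4.3.3 fitted 1 quasi-likelihood model of 20 groups (40 residual degrees of freedom) with TMM scaling, to the 15083 of 50559 genes that passed a filter (minimum count 10, minimum total 15). P-values were adjusted by Benjamini-Hochberg over all genes tested in each comparison, and SE is the log2 fold change divided by the square root of F. All 60 columns were matched to samples by name. The fit was also run on counts simulated with its own estimates of spread, which cannot show how it fares on the real data. Total reads per library (2561169 to 11065948) set the counting error, which single libraries of low genes such as Gbx2 carry most.

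The 10 factors and the gene lists were chosen with earlier results of these data known. List genes are named by the smallest adjusted p, up to 4 per list and comparison. Genes like a factor are named by Pearson r over group means, among tested genes of at least 5 CPM. Gm, Rik and other predicted symbols were left out of that search. Alternatives were RLE scaling, no filter, a mean of at least 1 CPM, a replicate block, DESeq2 1.42.0, the compared groups alone, limma 3.58.1 on log2(RUV value + 1), each library left out, and, chosen after seeing the data, the farthest library of each of the 4 groups with a deviation over 0.3 left out.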

Additional observations from a re-analysis of the deposited data

Results flagged for a closer look

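At 96 h, 20 differences between a line's response to 2i and that of 1A wild type passed the interaction test in edgeR's quasi-likelihood fit (adjusted p under 0.05). In EED knockout minus 1A wild type they were -0.98 for Nanog, -3.00 for Tbx3, -1.65 for Prdm14, -0.56 for Klf2, -0.71 for Esrrb, -1.20 for Tfcp2l1, -0.82 for Nr0b1 and 0.57 for Gbx2 on the log2 scale. In EZH2 knockout minus 1A wild type they were -0.87 for Nanog, -2.81 for Tbx3, -1.30 for Prdm14, -0.50 for Klf2, -0.72 for Klf4, -0.63 for Esrrb, -0.62 for Tfcp2l1 and -0.86 for Nr0b1. In V19 minus 1A wild type they were -1.26 for Tbx3, -1.31 for Prdm14, -0.93 for Nr0b1 and -0.75 for Gbx2. The calls for Klf2 and Tfcp2l1 in EZH2 knockout were lost in 8 and 10 of the fits that left out 1 library (adjusted p from 0.054 to 0.078 and from 0.051 to 0.14). On the RUV-normalized values the calls for Klf2 in EED knockout (-0.42, adjusted p = 0.054) and Gbx2 in V19 (-0.63, adjusted p = 0.14) were lost. All 20 share the libraries of 1A wild type, and each also holds that line's difference from 1A wild type before 2i.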

How the results depend on the processing

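The counts of called factors stayed within 1.5 times of those reported under RLE scaling, no filter, a mean of at least 1 CPM, DESeq2, the groups compared alone and 1 library left out, for the families and the comparisons at 0 and 96 h. On the RUV-normalized values, 3 factors were called for V19 against 1A wild type at 0 h in place of 5. Of all genes 4.58% were then higher and 3.94% lower, in place of 5.01% and 5.53%. For EED knockout against EZH2 knockout at 0 h, 2 factors were called in place of 7. Of all genes 4.91% were then higher and 4.87% lower, in place of 23.6% and 21.7%. With 1 library left out, responses ran from 143 to 146, line comparisons from 86 to 96, differences of response from 68 to 74 and steps from 64 to 69. With the replicate number as a block the counts were 145, 91, 73 and 67, and no other of these counts changed. Deviations from the group mean had a median correlation of 0.000848 over 570 pairs of libraries with the same number. Over the 90 such pairs at the same time the median was 0.0109, with a range of -0.25 to 0.411. A median near 0 cannot exclude shared handling of some samples, and the sources used here do not give what the numbers mark.

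The RUV-normalized values reversed the direction of these log2 fold changes, and the cause was not tested. At 0 h, EED knockout set against 1A wild type had Klf2 0.66, Klf5 0.25, Nr0b1 0.62, Gbx2 0.20, Tdh 0.092, Fgf4 0.21, Sox2 0.13, Lin28a 0.045, Socs3 0.089, Tcf7l2 -0.096, Dusp6 0.52, Krt7 -0.39, Krt8 -0.58, Krt18 -0.79, Thy1 -0.057, Pou5f1 0.091 and Sall4 0.16. At 96 h the same pair of lines had Nanog 0.34, Prdm14 -0.021, Klf2 0.24, Klf5 0.36, Esrrb 0.37, Nr0b1 0.088 and Gbx2 1.1. For EED knockout against EZH2 knockout they gave Nanog 0.098, Tbx3 -0.22, Klf2 0.57, Esrrb 0.27, Nr0b1 0.037 and Gbx2 0.050 at 0 h, and Nanog 0.069, Klf2 0.70, Klf4 0.22, Klf5 0.25, Esrrb 0.36, Nr0b1 0.43 and Gbx2 0.92 at 96 h.

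Values near 0 that were not called also changed sign. Esrrb in EZH2 knockout against 1A wild type at 96 h was -0.019 with RLE scaling and with DESeq2, -0.0030 with a mean of at least 1 CPM, -0.014 with the groups compared alone, -0.0095 without the 4 libraries, and -0.031 to 0.034 with 1 library left out. The same ranges were -0.043 to 0.053 for Gbx2 in EZH2 knockout and -0.12 to 0.050 for Tfcp2l1 in V19 at 0 h. At 96 h they were -0.052 to 0.039 for Nanog in EED knockout, -0.086 to 0.043 for Tbx3 and -0.17 to 0.023 for Tfcp2l1 in EZH2 knockout, and -0.081 to 0.056 for Prdm14 in V19. For the difference of the Klf5 response they were -0.0082 to 0.12 in EED knockout and -0.092 to 0.034 in V19.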
